A study of Mus musculus with 9 samples.

Results

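The genes examined here are 10 genes that radial glia and astrocytes of the neocortex use for lipid handling, glutamate uptake, metal binding, sugar metabolism and their matrix: *Fabp7*, *Apoe*, *Dbi*, *Slc1a3*, *Slc1a2*, *Aldoc*, *Mt1*, *Mt2*, *Mt3* and *Tnc*. They are 10 of the 17487 genes listed in the series, and each has a row in the files of all 9 libraries. Each library is the neocortex of 1 mouse embryo at E18.5, profiled by droplet single-cell RNA sequencing with transcripts counted by unique molecular identifiers (UMIs). All embryos were litter mates from breedings of *Tcf4* haploinsufficient mice, on the background that the labels give as Tcf4ex4WT/lacZ. WT libraries are wild type. KO libraries carry, on both alleles and in all cells, an insertion of lacZ and neomycin resistance sequences ahead of exon 4 of *Tcf4*, which leaves a shorter TCF4 isoform. The comparison was between WT2, WT3 and WT4 and KO4 and KO5. WT1, WT5, KO1 and KO2 are given as values and as alternatives.

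Cells were assigned by genes other than the 10. A cell counted as glia (radial glia and astrocytes) with at least 3 of 11 glial genes (*Sox2*, *Sox9*, *Hes1*, *Hes5*, *Pax6*, *Nes*, *Ttyh1*, *Mfge8*, *Ddah1*, *Ednrb* and *Gpr37l1*), at most 3 of 16 neuronal genes and at most 1 gene of intermediate progenitors. A cell counted as a neuron with at least 5 of the 16 neuronal genes and at most 1 glial gene. Each cell was first thinned to 1800 UMIs, so that the depth of a cell did not set its class. Glia were 45 of 1184 kept cells in WT2, 67 of 1617 in WT3, 185 of 6173 in WT4, 30 of 4199 in KO4 and 12 of 2303 in KO5. Neurons numbered 833, 1060, 4664, 3287 and 1811 in the same order. Levels are means over the cells of a class of UMIs per 10000 UMIs of the cell, called UMIs per 10000 below. The 16 neuronal genes summed to 11.2 to 17 UMIs per 10000 in the glia of the 3 WT libraries, against 75.9 to 92.7 in their neurons. In KO4 and KO5 they summed to 22.4 and 20.7 in glia and to 81.9 and 78.7 in neurons. At most 1 of the 11 glial genes was at 0 in the glia of any of the 5 libraries. These genes define the classes, so their levels describe the gate and do not test it.

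As background, radial glia are the stem cells that line the ventricle of the embryonic brain, and toward birth they turn from making neurons to making astrocytes. FABP7 (brain lipid-binding protein) carries long-chain fatty acids in these cells, APOE packs cholesterol into lipoprotein particles, and DBI binds acyl-CoA esters. SLC1A3 (GLAST) and SLC1A2 (GLT-1) take up glutamate, the first already in radial glia and the second mainly as astrocytes mature. ALDOC is the brain form of the glycolytic enzyme aldolase. The metallothioneins MT1, MT2 and MT3 are small cysteine-rich proteins that bind zinc and copper. Zinc induces *Mt1* and *Mt2* through the factor MTF1, while *Mt3* is a neural form that responds little to metals. TNC (tenascin C) is a matrix protein of the germinal zone.

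The 3 metallothionein genes lie side by side on chromosome 8 (GRCm38, GENCODE vM21), all on the plus strand. *Mt3* lies at chr8:94152607-94154146, *Mt2* at chr8:94172664-94173568 and *Mt1* at chr8:94179082-94180327. *Fabp7* lies at chr10:57784881-57788450 on the plus strand. Sequences before the starts of *Mt1*, *Mt2* and *Fabp7*, from the RefSeq promoter table of GRCm38.p6, are shown because *Mt1* and *Mt2* are the members that zinc induces and were called between the genotypes in neurons, and because *Fabp7* is the gene of the 10 with the highest level in glia. All are on the plus strand, 5′ to 3′, and end before the annotated first exon, at chr8:94178839-94179081, chr8:94172368-94172617 and chr10:57784673-57784880. Capitals mark, in *Mt1* and *Mt2*, the core of the metal response element (TGCACNC or TGCGCNC, on either strand) that MTF1 binds, and in *Fabp7* the E-box CANNTG, the kind of site that TCF4 and related factors bind:
Mt1: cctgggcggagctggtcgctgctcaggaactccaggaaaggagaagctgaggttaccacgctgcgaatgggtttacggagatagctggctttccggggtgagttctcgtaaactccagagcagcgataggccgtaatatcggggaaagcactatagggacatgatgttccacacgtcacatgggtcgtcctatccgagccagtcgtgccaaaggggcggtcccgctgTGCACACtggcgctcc
Mt2: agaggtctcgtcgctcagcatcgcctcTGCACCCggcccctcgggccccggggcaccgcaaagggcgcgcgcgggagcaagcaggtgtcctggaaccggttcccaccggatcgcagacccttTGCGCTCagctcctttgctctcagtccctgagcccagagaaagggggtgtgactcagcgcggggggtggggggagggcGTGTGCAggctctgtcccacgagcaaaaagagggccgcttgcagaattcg
Fabp7: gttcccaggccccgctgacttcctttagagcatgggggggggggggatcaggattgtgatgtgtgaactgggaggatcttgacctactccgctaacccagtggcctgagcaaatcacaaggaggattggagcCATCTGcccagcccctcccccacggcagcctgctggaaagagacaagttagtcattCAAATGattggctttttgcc
In the 250 bases before the RefSeq start, *Mt2* held 3 matches to the metal response element core, *Mt1* 1 and *Mt3* 0, and 21.4% of all 32851 promoter windows of this length held at least 1 match. *Fabp7* held 2 E-boxes, and 66.2% of all windows held at least 1. These matches describe the letters and do not show binding. Bases after the annotated start were not searched, so the counts need not cover all such sites of a gene. The last 300 bases of the *Mt1*, *Mt2* and *Mt3* transcripts, where 3′ reads fall, share runs of at most 20 identical bases.

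The 5 libraries held 3487769 to 29767293 UMIs, and the glial levels are least certain in KO5, whose 12 glia held 33620 UMIs. *Tcf4* over all kept cells was 12.3 ± 0.252 UMIs per 10000 (SD, n = 3) in WT and 8.44 ± 1.2 (n = 2) in KO, with an exact permutation p of 0.1 (2-sided), the smallest that 3 against 2 libraries allow. The authors left out 1 WT animal because its *Tcf4* lay below that of the KO, and the libraries compared here follow their choice. The order of *Tcf4* between the genotypes was thus partly set by the selection. The 3′ reads also count the isoform that KO embryos keep. *Tcf4* went against the label in WT5 (7.2), in the small WT1 (4.65) and in KO1 (16.7). Cells with over 1% haemoglobin UMIs, which were left out, made up 0.421 to 1.34% of cells in the 3 WT libraries, 13.9% in KO4 and 40.4% in KO5. Cells with at least 3 glial and at least 5 neuronal genes, as a glial cell and a neuron in 1 droplet would show, numbered 34, 12, 107, 132 and 70 across the 5 libraries. They were in neither class, and no other filter for doublets was applied. Any 2 libraries shared at most 46 cell barcodes, and at most 2.5% of the smaller library.

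The 10 genes were all higher in glia than in neurons on average over the libraries, and within each library except for *Slc1a2* in KO5. Among lipid genes, *Fabp7* was at 180.4, 225 and 187 UMIs per 10000 in the glia of WT2, WT3 and WT4 and at 106 and 116 in those of KO4 and KO5. Neurons of the same libraries held 5.1, 3.47 and 5.62 in WT, with 12.6 and 14 in KO. Every library had more *Fabp7* in glia than any library had in neurons, and the difference was 4.26 on the scale of log2(UMIs per 10000 + 1), used for all log2 differences here (SE 0.53, adjusted p = 0.00904). Tests were made with limma over all genes with a mean of at least 0.1 UMIs per 10000 in at least 2 values, with Benjamini-Hochberg adjustment and the library as the replicate. For glia against neurons the library was also a block. A gene is named as called where its adjusted p was under 0.05. All 10 genes passed the filter in every comparison, and 10 of 10 were called higher in glia, where 12.1% of the 9938 genes tested were called higher, 11% lower and 23% in either direction. With TMM scaling the calls over all genes turned from 1201 and 1089 (higher and lower) to 1018 and 1791, and all 10 genes were still called higher. *Apoe* was at 15.1, 10.6 and 25.9 in WT glia and at 11.9 and 11.1 in KO glia, against 0.224 to 1.13 in neurons, a log2 difference of 3.28 (SE 0.19). *Dbi* was at 80.0, 77.4 and 72 in WT glia and at 55.8 and 76.2 in KO glia, against 2.98 to 9.15 in neurons, a log2 difference of 3.52 (SE 0.28).

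**Figure D1:**
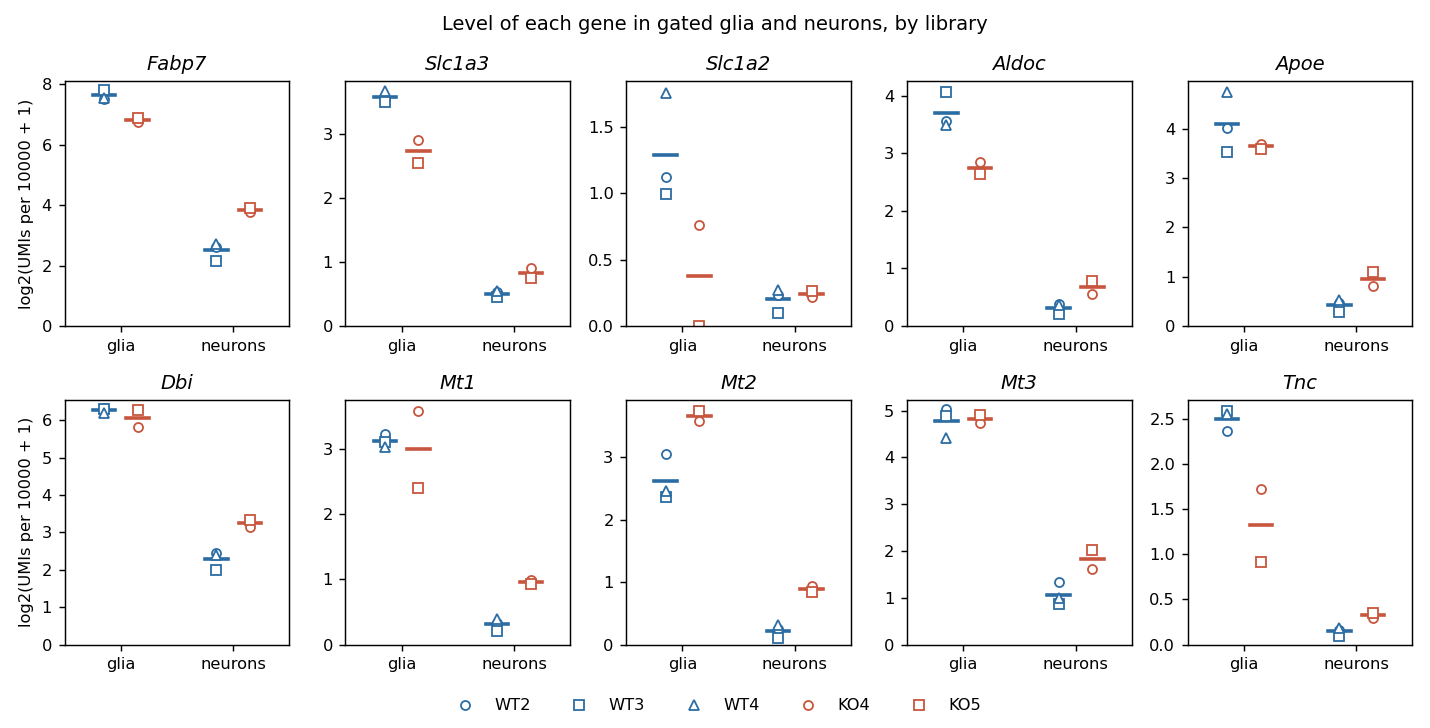
Levels of the 10 genes in gated glia and neurons of 3 WT (blue) and 2 KO (red) libraries, as log2(UMIs per 10000 + 1) on the vertical axis. Each symbol is 1 library and each line the mean of its genotype. For *Fabp7* the glia sit between 106 and 225 UMIs per 10000 and the neurons between 3.47 and 14.

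The glutamate transporter of radial glia, *Slc1a3*, was at 10.7, 10.3 and 11.7 UMIs per 10000 in WT glia and at 6.51 and 4.84 in KO glia, against 0.368 to 0.879 in neurons (log2 difference 2.60, SE 0.18). *Slc1a2*, the transporter of maturing astrocytes, was at 1.17, 0.987 and 2.38 in the 3 WT libraries and at 0.691 in KO4, from 5 UMIs, and no UMI was found in the 12 glia of KO5. A count of 0 allows up to 0.892 UMIs per 10000 there. Neurons held *Slc1a2* at 0.0727 to 0.206, with 0.199 in KO5, above the glia of that library. The log2 difference of *Slc1a2* between glia and neurons was 0.71 (SE 0.19, adjusted p = 0.0177), and this call was lost without WT2 (adjusted p = 0.0802), without WT3 (0.0784) and without KO4 (0.0559). It was also lost with a pseudocount of 0.1 (0.112), with no filter on low values (0.129) and with up to 5 neuronal genes allowed in glia (0.128). *Aldoc* was at 10.7, 15.7 and 10.2 in WT glia and at 6.21 and 5.25 in KO glia, against 0.15 to 0.728 in neurons (log2 difference 2.86, SE 0.25).

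Among the metallothioneins, *Mt3* was at 31.6, 28.7 and 20.4 UMIs per 10000 in WT glia and at 25.8 and 28.8 in KO glia. Neurons held 1.51, 0.824 and 0.989 in WT, with 2.07 and 3.07 in KO, and the log2 difference was 3.43 (SE 0.13, adjusted p = 1.94e-10). *Mt1* was at 8.41, 7.67 and 7.16 in WT glia and at 11.1 and 4.31 in KO glia, against 0.154 to 0.984 in neurons (log2 difference 2.51, SE 0.17). *Mt2* was at 7.29, 4.17 and 4.48 in WT glia and at 10.9 and 12.4 in KO glia, against 0.0748 to 0.915 in neurons (log2 difference 2.55, SE 0.12). The matrix gene *Tnc* was at 4.14, 5.01 and 4.87 in WT glia and at 2.31 and 0.884 in KO glia, the last from 3 UMIs, against 0.0686 to 0.271 in neurons (log2 difference 1.81, SE 0.25).

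The other cell classes separate the genes further. *Apoe* was higher in microglia, the immune cells of the brain, than in glia, at 80.9 UMIs per 10000 in the 53 microglia of WT4 and 16.2 in the 43 of KO4, the libraries with at least 10 such cells. Endothelial cells held *Apoe* at 2.46, 10.0 and 3.88 in the 3 WT libraries and at 2.12 and 3.59 in KO4 and KO5, above the neurons of each library. Intermediate progenitors, the dividing daughters of radial glia, held *Fabp7* at 12.2 ± 1.1 (SD, n = 3) in WT and 31.7 ± 5.2 (n = 2) in KO, and *Dbi* at 18.4 ± 2.61 and 23.3 ± 2.53. *Fabp7* in these cells lay between its levels in glia and neurons of the same genotype. *Mt1* in the microglia of WT4 was 3.56, against 0.313 in the neurons of that library, while *Mt2* and *Mt3* in these microglia were 0.577 and 1.15.

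In glia, *Tnc* fell between the genotypes and was the only gene of the 10 called, at 4.67 ± 0.468 UMIs per 10000 (SD, n = 3) in WT and 1.6 ± 1.01 (n = 2) in KO, a log2 change of -1.18 (SE 0.25, adjusted p = 0.0423 in limma). This was 1 of 10 genes, where 0.403% of the 9184 genes tested were called in either direction, 0.24% higher and 0.163% lower in KO, or 22 and 15 genes, against 27 and 10 in DESeq2. The call of *Tnc* was lost without WT2 (adjusted p = 0.409), WT3 (0.189), WT4 (0.0861) or KO5 (0.13), and over the alternatives its adjusted p ranged from 0.00137 to 0.605. *Fabp7* was at 197 ± 24.1 in WT glia and 111 ± 7.11 in KO glia (log2 change -0.82, SE 0.19, adjusted p = 0.0879), *Aldoc* at 12.2 ± 3.02 and 5.73 ± 0.679 (-0.95, SE 0.22, adjusted p = 0.0879) and *Slc1a3* at 10.9 ± 0.734 and 5.67 ± 1.18 (-0.84, SE 0.21, adjusted p = 0.118). *Slc1a2* was at 1.51 ± 0.754 in WT (adjusted p = 0.168). These 4 were not called in limma, while edgeR on the summed UMIs called *Fabp7* (adjusted p = 0.00272), *Slc1a3* (0.0144), *Tnc* (0.0217) and *Mt2* (0.00249). For 5 of the 10 genes, *Fabp7*, *Slc1a3*, *Slc1a2*, *Aldoc* and *Tnc*, both KO libraries lay below all WT libraries, as they did for 23% of all genes tested.

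**Figure D2:**
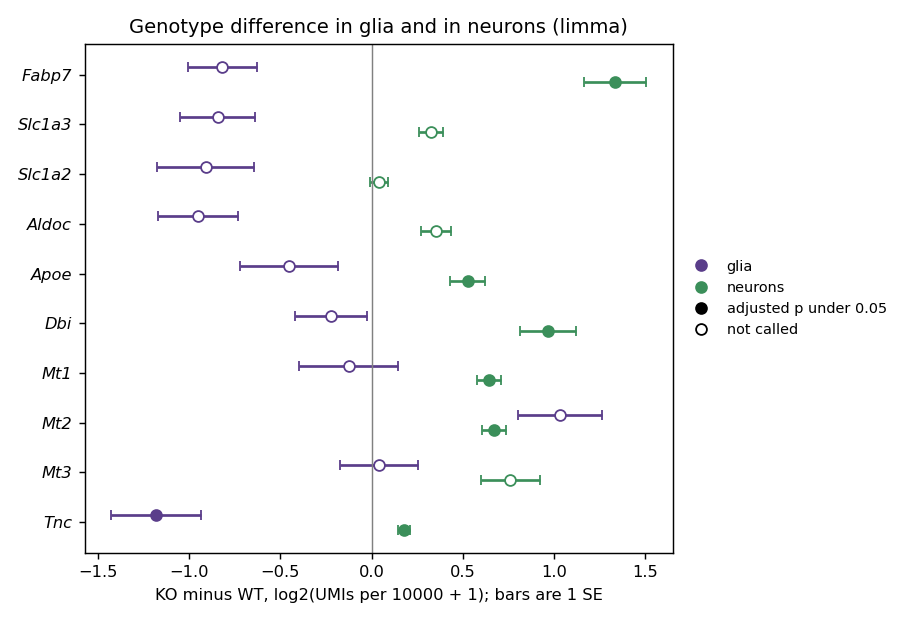
KO minus WT on the scale of log2(UMIs per 10000 + 1), horizontal axis, for each of the 10 genes in glia (purple) and neurons (green), from limma on 3 WT and 2 KO libraries. Bars are 1 SE and filled symbols are genes with an adjusted p under 0.05. In glia *Tnc* is filled at -1.18, and in neurons 6 genes are filled, *Fabp7* the farthest right at 1.33.

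None of the 3 metallothioneins was called between the genotypes in glia in limma, and no test compared them with each other. *Mt2* was at 5.32 ± 1.72 UMIs per 10000 (SD, n = 3) in WT glia and 11.7 ± 1.03 (n = 2) in KO glia, a log2 change of 1.03 (SE 0.23, adjusted p = 0.0663), and both KO libraries lay above all 3 WT libraries, as for 11.2% of all genes tested. *Mt1*, its neighbour, was at 7.74 ± 0.627 and 7.68 ± 4.77, with KO4 above and KO5 below all WT libraries (-0.13, SE 0.27, adjusted p = 0.855), and its sign turned under several alternatives, edgeR among them (0.13). *Mt3* was at 26.9 ± 5.83 and 27.3 ± 2.15, with the KO libraries inside the WT range (0.04, SE 0.21, adjusted p = 0.95). *Apoe* and *Dbi* overlapped between the genotypes too, with log2 changes of -0.45 (SE 0.27) and -0.22 (SE 0.20).

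The smaller KO libraries were added as an alternative. *Mt2* was at 9.46 UMIs per 10000 in the 28 glia of KO1 and at 20.2 in the 15 of KO2, so that the 4 KO libraries lay above the 3 WT libraries, and it was called (log2 change 1.15, adjusted p = 0.0353). *Fabp7* then had a log2 change of -0.52 (adjusted p = 0.529), with 201 in KO1, inside the WT range, and 140.0 in KO2. *Tnc* had -0.96 (adjusted p = 0.194), with 3.09 in KO1 and 1.79 in KO2, below the WT libraries.

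Other measures differed between the same glia. The 11 glial genes of the gate summed to 37.4, 36 and 40.0 UMIs per 10000 in WT2, WT3 and WT4, with 31.3 and 28.4 in KO4 and KO5. The 16 neuronal genes summed to 17, 11.2 and 15.8 in WT and to 22.4 and 20.7 in KO. A list of 10 genes of more mature astrocytes, among them *Aqp4*, *Gja1* and *Gfap*, summed to 5.97, 5.77 and 6.68 in WT and to 3.57 and 0.967 in KO, with 5 and 9 of the 10 genes at 0 in KO4 and KO5. Of the 6 that could be tested, 0 were called in limma and 5 had an unadjusted p under 0.05, as did 1409 of all 9184 genes tested. All 6 lay lower in both KO libraries than in any WT library, as did 23% of all genes. Haemoglobin genes summed to 4.6 to 6.42 in WT glia and to 14.1 and 39.1 in KO glia, and 3 of 4 tested haemoglobin genes were called higher in KO. The part of these measures in the glial differences was not tested. With up to 5 neuronal genes allowed in a glial cell, a gate chosen after seeing the data, 7 of the 10 genes were called between the genotypes. Over all genes 208 were then called, against 37 with the main gate. With at least 4 glial and at most 2 neuronal genes required, KO5 kept 4 glia, under the minimum of 10, and only KO4 stood for KO, with its spread assumed to be like that of the WT libraries. In that fit 0 of the 10 genes were called in limma and 4 had an unadjusted p under 0.05.

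In neurons, KO libraries had higher levels of 9 of the 10 genes with no overlap with WT, as in 10.3% of the 8375 genes tested, while 39.2% of genes lay below WT in both. Of the 10 genes, 6 were called, all higher, where 1.79% of all genes were called higher, 0.143% lower and 1.93% in either direction. *Fabp7* was at 4.73 ± 1.12 UMIs per 10000 (SD, n = 3) in WT neurons and 13.3 ± 0.967 (n = 2) in KO neurons, a log2 change of 1.33 (SE 0.17, adjusted p = 0.00691). *Dbi* was at 3.9 ± 0.814 and 8.5 ± 0.921 (0.97, SE 0.15, adjusted p = 0.0196), and *Apoe* at 0.348 ± 0.112 and 0.945 ± 0.256 (0.53, SE 0.10, adjusted p = 0.0361). *Mt1* rose from 0.243 ± 0.0813 to 0.94 ± 0.0621 (0.64, SE 0.07) and *Mt2* from 0.168 ± 0.085 to 0.857 ± 0.0816 (0.67, SE 0.07), both with an adjusted p of 0.00301. *Tnc* was called on levels of 0.107 ± 0.0333 and 0.25 ± 0.029 (0.18, adjusted p = 0.0454). *Slc1a3* (0.32, adjusted p = 0.0529), *Mt3* (0.76, 0.0637) and *Aldoc* (0.35, 0.0835) were not called. *Slc1a2* overlapped between the genotypes (0.04, adjusted p = 0.622).

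The neuronal calls rested on which libraries were used. WT5 neurons held *Fabp7* at 11.2 UMIs per 10000 and *Dbi* at 7.87, near the KO libraries. With WT5 added, 0 of the 10 genes and 0 of all genes were called in limma, while 8 of the 10 had an unadjusted p under 0.05 (adjusted p = 0.696 for *Fabp7*). In the main fit, without WT5, 9 of the 10 genes and 2040 of all 8375 had an unadjusted p under 0.05. Without WT2 or without KO5, *Mt1* and *Mt2* alone were called, with adjusted p of 0.0479 and 0.0479 without WT2 and of 0.0145 and 0.0106 without KO5. *Fabp7* then had 0.0623 and 0.0761. Without WT3, 4 of the 10 genes and 153 of all genes were called, and without WT4 9 and 1019, against 6 and 162 in the main fit. Without KO4, and so with KO5 as the only KO library, *Fabp7* had a log2 change of 1.40. Haemoglobin genes, which mark red blood cells, summed to 7.22, 8.57 and 5.49 UMIs per 10000 in the neurons of WT2, WT3 and WT4, to 32.7 and 72.8 in those of KO4 and KO5 and to 46.4 in WT5, and 4 of 4 tested were called higher in KO neurons. The 10 genes summed to 13, 8.39 and 12.9 in WT2, WT3 and WT4 neurons, to 26.9 and 30.9 in KO4 and KO5 (exact permutation p = 0.1, 2-sided, the smallest possible) and to 24.9 in WT5. The part of free RNA in these values was not tested.

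Endothelial cells and microglia, which come from other lineages, also held *Fabp7*. Endothelial cells were at 3.19, 4.57 and 4.35 UMIs per 10000 in WT2, WT3 and WT4, with 8.33 and 11.4 in KO4 and KO5. The microglia of WT4 held 6.36 and those of KO4 11.4. *Fabp7* was 2.81 times as high in KO as in WT neurons and 2.44 times as high in KO as in WT endothelial cells. For the 9 genes other than *Apoe*, the pooled neuronal level lay inside the 95% exact Poisson interval of the endothelial level in 37 of 45 pairs of gene and library, above it in 6 and below it in 2. These intervals cover counting error only and are wide, with 12 to 56 endothelial cells a library. *Fabp7* was above the interval in 3 of 5 libraries, with 12.4 in KO4 neurons against 8.14 (interval 6.77 to 9.71) in its endothelial cells. The gap was wider in WT5 and KO1, whose *Tcf4* went against the label. WT5 neurons held 11.2 against 4.17 (interval 2.77 to 6.03) in 23 endothelial cells, and KO1 neurons 16.4 against 3.49 (interval 1.99 to 5.66) in 10 endothelial cells. *Apoe* in neurons was below the endothelial interval in all 5 libraries. *Dbi* was 2.18 times as high in KO as in WT neurons and 1.1 times in endothelial cells. Of the other genes called in neurons, *Mt1* (3.86 times in neurons and 2.44 in endothelial cells) and *Mt2* (5.11 and 2.78) were higher in KO in both. *Apoe* (2.72 and 0.522) and *Tnc* (2.35 and 0.893) were higher in KO in neurons only. The endothelial levels of *Mt1*, *Mt2* and *Tnc* rest on few UMIs, and these differences between the classes were not tested.

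**Figure D3:**
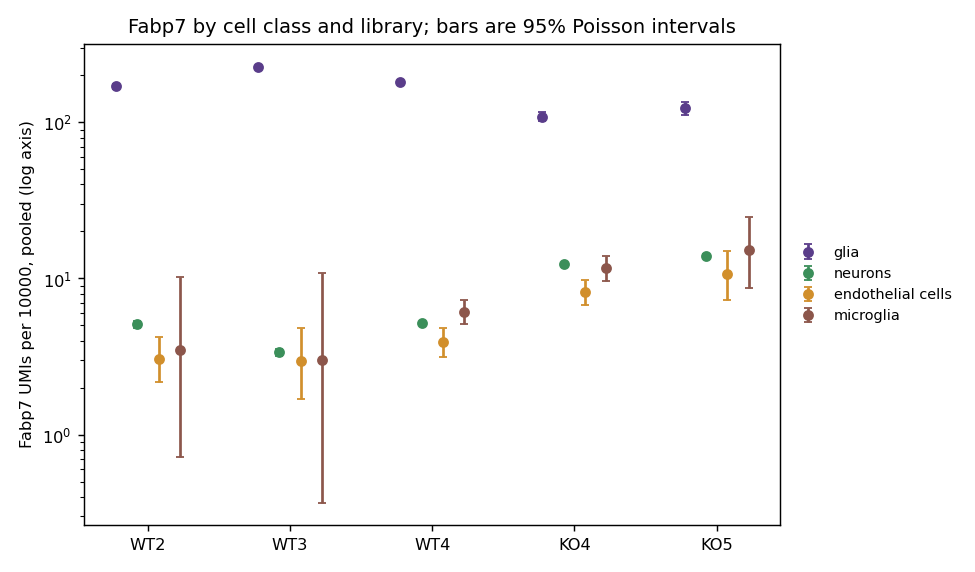
*Fabp7* UMIs per 10000, pooled over the cells of a class (vertical, log axis), by library and cell class, with 95% exact Poisson intervals. Neurons and endothelial cells lie at 2.95 to 5.19 in the 3 WT libraries and at 8.14 to 14 in KO4 and KO5, while glia lie at 109 to 225.

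Shares of cells were compared at equal depth. With each cell thinned to 1800 UMIs, a *Fabp7* UMI was found in 95.5 to 100% of glia of the 5 libraries. In neurons it was found in 53.9, 41.2 and 55.1% in WT2, WT3 and WT4 and in 82.8 and 90.1% in KO4 and KO5, and in endothelial cells in 34.6, 25 and 45.9% and in 67.9 and 84.6%. Before thinning the neuronal shares were 67.5, 64.5, 83.8, 88.9 and 94.1% in the same order, in neurons of on average 2855, 4064, 4767, 2560 and 2396 UMIs. The thinned neuronal share of *Slc1a3* was 5.85 to 7.1% in WT, with 13.5 and 11.4% in KO, while its glial share was 80, 74.6 and 77.3% in WT and 43.3 and 66.7% in KO. A single *Fabp7* UMI did not set glia apart from other cells in any of the 5 libraries, least of all in KO4 and KO5.

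Within a library, the neuronal level of most of the genes was a small part of the glial level. Its median over the 10 genes was 3.01% in WT2, 2.07% in WT3, 4.14% in WT4 and 9.43% in KO4, and 12% in KO5 over the 9 genes found in its glia. *Slc1a2* had the highest such percentage in WT2, WT3, WT4 and KO4, from 7.37% in WT3 to 24% in KO4. In KO5 *Tnc*, with 3 glial UMIs, was highest at 30.6%, and *Mt1* was at 20.8%. *Slc1a2* was at 0.199 in neurons and 0 in glia of KO5. With the neuronal level of each library taken off its glial level, the 10 genes summed to 349 ± 24.5 UMIs per 10000 (SD, n = 3) in WT and 219.6 ± 13.2 (n = 2) in KO, with all WT libraries above both KO libraries (exact permutation p = 0.1, 2-sided, the smallest possible). KO1 (357) and KO2 (295), taken the same way, lay above KO4 and KO5.

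The change between genotypes differed between glia and neurons for 3 of the 10 genes in a test of the difference itself, where 0.141% of 9938 genes were called, 0.0704% in each direction. Of the calls over all genes 7 were more positive and 7 more negative in glia, against 3 and 22 with TMM scaling, 9 and 140 in edgeR with TMM and 7 and 40 in DESeq2. *Fabp7* had a difference of -2.15 in log2 (SE 0.20, adjusted p = 0.00361), *Dbi* of -1.19 (SE 0.15, adjusted p = 0.0256) and *Slc1a3* of -1.17 (SE 0.17, adjusted p = 0.0361), each more negative in glia. *Fabp7* was not called in edgeR on the summed UMIs (-2.59, adjusted p = 0.227), where the other 9 genes were called, all more negative in glia, and it was called in DESeq2 (1.04e-10). *Tnc* (-1.36, adjusted p = 0.0837) and *Aldoc* (-1.3, 0.0846) were not called in limma. *Mt2*, with 0.36 (adjusted p = 0.477), was the only positive value of the 10, and it was negative with a pseudocount of 0.1 (-0.73) and in edgeR (-1.23) and DESeq2 (-1.33). Without WT2, 0 of the 10 genes were called in limma, while 9 had an unadjusted p under 0.05 (adjusted p = 0.348 for *Fabp7*). In the main fit 9 of the 10 genes and 1403 of all 9938 had an unadjusted p under 0.05. *Fabp7* also lost its call without KO5 (0.0511), *Dbi* without WT4 (0.059), and *Slc1a3* without WT3 (0.208) or WT4 (0.27). The call of *Slc1a3* was lost too with values thinned to 1800 UMIs (-1.16, adjusted p = 0.0726), and, with KO4 as the only KO library, under the stricter gate (-0.91, 0.0881) and a gate on unthinned UMIs (-0.59, 0.311). With no filter on low values, none of the 3 was called in limma (adjusted p = 0.385 for each), while 8 of the 10 genes had an unadjusted p under 0.05. Without KO4, and so with KO5 as the only KO library, the differences were -2.16 for *Fabp7*, -1.07 for *Dbi* and -1.27 for *Slc1a3*. With endothelial cells and microglia in the place of neurons, *Fabp7* alone of the 10 was called (-1.98, adjusted p = 1.28e-06), and 33 of all genes were called. *Slc1a3* then had -1.15 (adjusted p = 0.152) and *Dbi* -0.43 (adjusted p = 0.421).

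Most UMIs of these genes lay outside the glial class in all 5 compared libraries. Glia were few in KO4 and KO5 and held a smaller share of the UMIs there than in WT2, WT3 and WT4. Cells in no gate also held these genes, with *Fabp7* at 33.2 ± 7.93 UMIs per 10000 (SD, n = 3) in WT and 25 ± 3.7 (n = 2) in KO. Glia were 3.8, 4.14 and 3.0% of kept cells in WT2, WT3 and WT4 and held 31.5, 44.4 and 33.4% of the UMIs of the 10 genes. In KO4 and KO5 they were 0.714 and 0.521% of cells and held 6.08 and 4.57% of the UMIs. Neurons held 20.3, 12.7 and 27.1% in the WT libraries and 56.3 and 65.8% in KO4 and KO5. *Fabp7* over all kept cells was at 19.2, 18.8 and 15.8 UMIs per 10000 in WT, with 16 and 16.3 in KO, so that the 2 KO libraries lay inside the WT range. In KO1 and KO2, glia held 33.9 and 34.9% of the UMIs, and in WT5, with 4 gated glia, 2.03%.

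**Figure D4:**
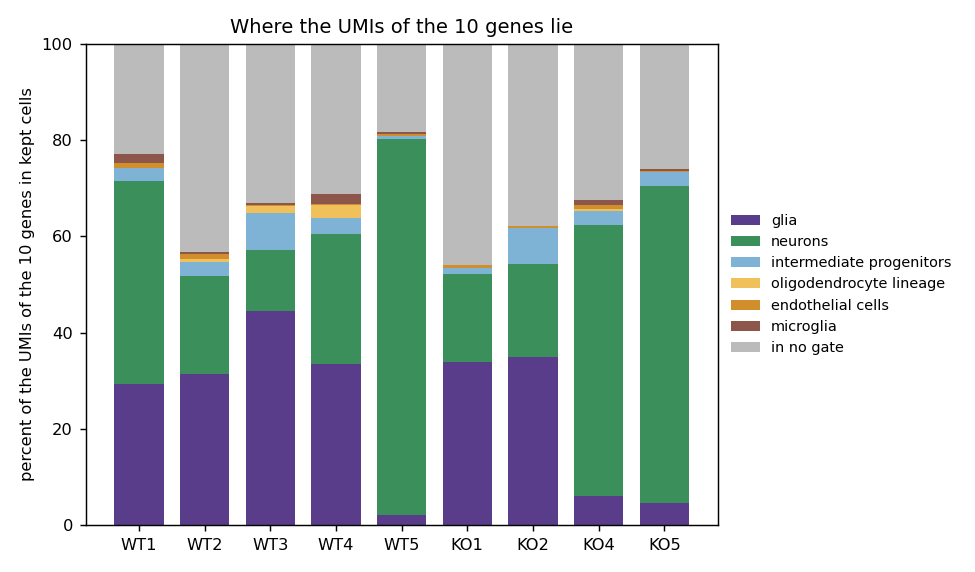
Percentage of the UMIs of the 10 genes, summed over kept cells, that lie in each cell class (stacked, vertical axis from 0 to 100%), for the 9 libraries. Glia hold 31.5 to 44.4% in the 3 WT libraries compared, against 6.08 and 4.57% in KO4 and KO5, where neurons hold 56.3 and 65.8%.

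Dividing glia had lower levels of some of the genes than the other glia of the same library. Glia with at least 2 of 10 genes of the cell cycle (*Mki67*, *Top2a* and others) numbered 17, 22, 59 and 15 in WT2, WT3, WT4 and KO4, against 28, 45, 126 and 15 without. KO5 had 3 and was not used. *Fabp7* was at 119, 113, 126 and 88 UMIs per 10000 in cycling glia and at 218, 279.8, 215 and 124 in the others, lower in 4 of 4 libraries (log2 change -0.86, SE 0.09, adjusted p = 7.86e-07). *Apoe* was at 7.65, 4.26, 12.9 and 3.11 against 19.6, 13.6, 31.9 and 20.8 (-1.60, SE 0.15, adjusted p = 3.53e-07). *Aldoc* (-1.15, SE 0.17, adjusted p = 0.000212) and *Slc1a3* (-0.69, SE 0.15, adjusted p = 0.0122) were called lower too. These were 4 of the 10 genes, where 0.336% of 10116 genes were called lower, 1.06% higher and 1.39% in either direction. *Dbi* (-0.39, adjusted p = 0.101), *Tnc* (-0.47, 0.364), *Mt1* (-0.33, 0.546), *Mt2* (-0.12, 0.867) and *Mt3* (-0.28, 0.63) were not called. In KO4, with 15 cells on each side, *Mt1* was at 13.1 in cycling and 9.02 in other glia, *Mt2* at 13.5 and 8.4 and *Mt3* at 32.3 and 19.2. *Dbi* (61.3 and 50.3) and, by little, *Tnc* (2.34 and 2.28) were higher in cycling glia of KO4 too. Without KO4, 8 of the 10 genes were called, *Mt1* and *Mt3* among them, and 327 of all genes, against 141 with KO4. The call of *Slc1a3* was lost without WT3 (adjusted p = 0.293). With up to 5 neuronal genes allowed, where KO5 had 10 cycling glia and entered, *Apoe* alone was called. *Fabp7* then had -0.49 (adjusted p = 0.729), *Aldoc* -0.85 (0.584) and *Slc1a3* -0.40 (0.439). With no filter on low values the calls of *Aldoc* (0.118) and *Slc1a3* (0.317) were lost.

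**Figure D5:**
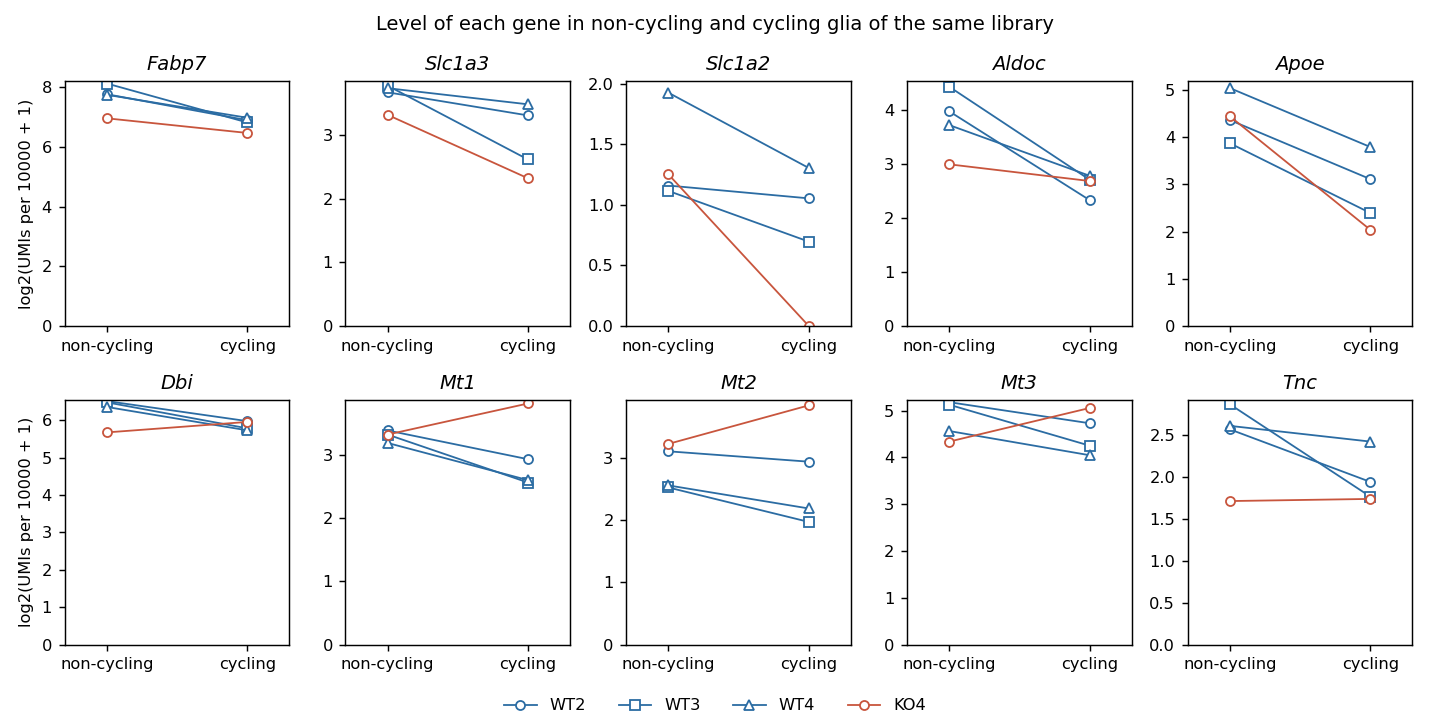
Levels of the 10 genes as log2(UMIs per 10000 + 1), vertical axis, in non-cycling and cycling glia, with 1 line for each of WT2, WT3, WT4 (blue) and KO4 (red). The lines of *Fabp7*, *Slc1a3*, *Aldoc* and *Apoe* fall in 4 of 4 libraries. Those of *Mt1*, *Mt2*, *Mt3*, *Dbi* and, by little, *Tnc* rise in KO4.

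Genes with related roles were followed as lists. Among 20 further lipid genes, 19 could be tested. Of these, 17 lay higher in glia than in neurons and 9 were called higher, where 12.1% of all genes were called higher and 11% lower. The calls were led by *Plpp3* (log2 difference 2.09, SE 0.12), a lipid phosphatase, *Clu* (1.24, SE 0.14), which encodes the lipoprotein clusterin, and *Acsbg1* (0.93, SE 0.11), a fatty acid activating enzyme. The lipid list had a median of 0.27, against 2.73 for the 10 genes and 0.00 over all genes tested. Of 19 genes of glutamate, amino acid and potassium handling, 17 lay higher in glia and 9 were called higher. Among the called were *Glul* (1.49, SE 0.17), glutamine synthetase, and *Glud1* (0.97, SE 0.14), glutamate dehydrogenase. The 2 called lower, named after their values were seen, were *Slc1a1* (-0.24), the glutamate transporter of neurons, and *Slc38a1* (-0.41). Of 8 tested genes of metal handling, 6 lay higher and 2 lower. *Slc39a1* (0.86, SE 0.11), a zinc importer, was called higher and *Ftl1* (-0.41), the light chain of ferritin, was called lower. Of 12 glycolytic genes 9 lay higher and 6 were called higher, with *Ldha* (1.07) and *Eno1* (0.85) at the smallest adjusted p. *Hk1* (-0.43), a hexokinase named after its value was seen, was called lower. Of 10 tested matrix genes 9 lay higher and 7 were called higher, *Sparc* (1.49) and *Ncan* (1.11) among the called. All 6 tested genes of mature astrocytes were called higher, *Mlc1* (1.3) and *Aqp4* (0.53) among them.

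Between genotypes in glia, *Glul*, of the list of glutamate, amino acid and potassium handling, fell from 5.32 ± 0.635 (SD, n = 3) to 1.97 ± 0.304 (n = 2) UMIs per 10000 (adjusted p = 0.0338 in limma). The matrix gene *Bcan* (brevican) fell from 2.06 ± 0.489 to 0.274 ± 0.387 (adjusted p = 0.0247), 1 of 9 tested. The zinc importer *Slc39a1*, 1 of 8 tested metal genes, rose from 0.941 ± 0.234 to 3.14 ± 0.0693 (adjusted p = 0.0338), and it also rose in neurons, from 0.177 ± 0.0239 to 0.957 ± 0.0149 (adjusted p = 0.000461). No gene of the lipid and glycolysis lists was called in glia in limma: 6 of 18 and 1 of 12 had an unadjusted p under 0.05, as did 1409 of all 9184 genes tested. The medians of the lipid, transporter, metal, glycolysis and matrix lists in glia were -0.30, -0.26, -0.15, -0.24 and -0.34, against -0.64 for the 10 genes and -0.06 over all genes.

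In neurons *Insig1*, a sensor of sterols, rose from 0.609 ± 0.206 (SD, n = 3) to 1.75 ± 0.084 (n = 2) UMIs per 10000 between WT and KO (adjusted p = 0.00816 in limma), and *Sparc* (0.40) and *Sparcl1* (0.29) rose too. The medians of the same lists in neurons lay between -0.04 (glycolysis) and 0.15 (matrix), against 0.59 for the 10 genes and -0.04 over all genes. In cycling glia *Glul* (-0.82), *Plpp3* (-0.74), *Hmgcs1* (-0.59), *Ptprz1* (-0.89), *Sparcl1* (-0.81) and *Bcan* (-0.83) were called lower.

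The genes most like the 10 in their levels over classes and libraries were *Mlc1*, *Clu*, *Phgdh*, *Vcam1* and *Ndrg2*. Their Pearson correlation with the mean of the 10 standardized genes was 0.97, 0.96, 0.95, 0.94 and 0.93 over 24 values of a class in a library, which share their libraries and the same separation of glia from other cells. Of the 10 genes themselves, *Aldoc* (0.97) and *Slc1a3* (0.96) followed the mean most closely, and *Slc1a2* (0.69) and *Apoe* (0.58) least. *Phgdh*, the first enzyme of serine synthesis, was at 6.23 UMIs per 10000 in WT and 3.44 in KO glia and at 0.185 and 0.431 in neurons. It was chosen by its likeness, so these levels are given without a test.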

How the data were processed

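Neocortices of E18.5 mouse embryos were profiled by the authors with Chromium 3′ v2 chemistry, and the submitters' processing notes name Cell Ranger, Seurat 2.3.4 and the build mm10 (GRCm38). For WT4, WT5, KO4 and KO5, UMI counts per gene and cell were deposited by the authors. The other 5 libraries hold natural log values of 1 plus UMIs per 10000, deposited by the authors, from which 100% of values came out as whole UMIs (tolerance 1e-06). Of the compared libraries, WT2 and WT3 hold log values and WT4, KO4 and KO5 hold counts. Genotype can therefore not be fully told apart from this division of the libraries, whose part was not tested. Groups follow the labels. P-values measure the spread between libraries.

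The 10 genes, the gene lists and the 5 compared libraries were chosen with earlier results of these data known. Kept cells had 1000 to 5000 genes, 1800 to 10000 UMIs, under 6% mitochondrial and at most 1% haemoglobin UMIs. A library needed 10 cells of a class. Limma-trend with robust variances (limma 3.58.1, R 4.3.3) was fitted to log2(mean UMIs per 10000 + 1). EdgeR 4.0.16 and DESeq2 1.42.0 on summed UMIs were alternatives. Exact permutation tests were 2-sided. On simulated data limma recovered 85% of genes with a log2 change of 3 and 2% of genes with 1 between genotypes in glia (8695 genes), and 100% and 36% in neurons (8279 genes). There were 100 changed genes of each size. Among unchanged genes limma made 18 false calls in glia and 10 in neurons, edgeR 6 and 14, and DESeq2 3 and 11. Named genes of a list are called ones, at most 4 with the smallest adjusted p for each list and comparison, with exceptions stated. Some genes of the lists are not reported here.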

Additional observations from a re-analysis of the deposited data

Results flagged for a closer look

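The genotype change differed between glia and neurons in the limma test of the difference for *Fabp7* by -2.15, *Slc1a3* by -1.17 and *Dbi* by -1.19 on the log2 scale.

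Libraries far from the others of their label were sought among 50 groups of 4 or 5 libraries, of which chance flags about 1 in 20, and 9 were found. WT1, with 126 kept cells, was above the other 4 WT libraries for *Mt1* in neurons (1.96, next 0.657 in WT5, in UMIs per 10000) and in all kept cells (2.41, next 0.895 in WT2), for *Mt3* in neurons (7.39, next 2.14 in WT5) and in all kept cells (9.05, next 3.94 in WT2), and in all kept cells for *Mt2* (2.0, next 0.678 in WT2) and *Dbi* (25.3, next 11.7 in WT2). KO1, with 331 kept cells, was above the other 3 KO libraries for *Slc1a2* in neurons (0.699, next 0.199 in KO5) and in all kept cells (0.909, next 0.205 in KO5). WT5 was below the other 4 WT libraries for *Tnc* in all kept cells (0.286, next 0.385 in WT4).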

How the results depend on the processing

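Of the 10 genes, 9 or 10 were called higher in glia than in neurons under every alternative run. The other counts depended on settings. In the genotype comparisons that use glia, the stricter gate, the gate on all UMIs and non-cycling glia left under 10 glia in KO5, so these fits hold KO4 as the only KO library, as does leaving out KO5, and its spread is assumed to be like that of WT. Between genotypes in glia (1 called), it was 0 with a pseudocount of 0.1, 0 with no filter on low values, 0 with the stricter gate, 0 without glia holding a ganglionic eminence gene, 2 with TMM scaling, 2 with no haemoglobin limit, 2 in non-cycling glia, 3 in DESeq2, 4 in edgeR with TMM and 4 with RLE, 4 with values thinned to 1800 UMIs, 7 with the wider gate (chosen after seeing the data) and 0 to 6 without 1 library. In neurons (6 called), it was 2 with no filter, 0 with WT5, 0 with all libraries (2 with an unadjusted p under 0.05) and 2 to 9 without 1 library. For the difference between glia and neurons (3 called), it was 0 with no filter, 9 in edgeR with TMM and 8 with RLE, 8 in DESeq2, 9 with the wider gate, 1 with endothelial cells and microglia as background and 0 to 9 without 1 library. In cycling glia (4 called), it was 2 with no filter, 8 in edgeR with TMM and 8 with RLE, 1 with the wider gate, 7 with the gate on all UMIs, from WT3 and WT4 alone, and 3 to 8 without 1 library. Where 0 were called in limma between genotypes in glia or for the difference, 4 to 9 of the 10 genes had an unadjusted p under 0.05. In the main fits 1409 of all 9184 genes in glia and 1403 of all 9938 genes for the difference had an unadjusted p under 0.05. The cause of these shifts was not tested.

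Same-numbered WT and KO libraries did not all deviate together in neurons (correlations -0.0805, 0.269, 0.23 and 0.525), and the main fits do not pair them. For WT2, WT4 and WT5 the same-numbered KO library had the highest correlation. The lead was small for WT2 (next 0.228, KO1) and WT5 (next 0.522, KO4). Whether the numbers mark pairs cannot be told from these values. Both same-numbered pairs with enough glia were positive in glia (0.19 and 0.303), each the highest value of its WT library. In neurons, KO4 and KO5 had -0.424 and -0.362 with WT2, -0.251 and -0.306 with WT3, and 0.23 and -0.0156 with WT4. They had 0.522 and 0.525 with WT5 and -0.0497 and 0.103 with WT1. In glia they had -0.157 and -0.0895 with WT2, -0.163 and -0.165 with WT3, and 0.303 and 0.242 with WT4. With the replicate block, 3 genes were called in glia, *Mt2* (adjusted p = 5.15e-06), *Fabp7* (0.00224) and *Apoe* (0.00447) but not *Tnc* (0.156), 0 in neurons and 5 for the difference. The same libraries without the replicate block, an alternative chosen after seeing the data, gave 0, 0 and 2.

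Signs turned for genes that were not called. In glia between genotypes, *Mt1*, whose level was above WT in KO4 and below it in KO5, was 0.13 in edgeR with TMM, 0.18 with RLE, 0.14 in DESeq2, 0.16 with the stricter gate, 0.48 with the gate on all UMIs, 0.27 with all libraries, 0.70 with and without the replicate block, 0.023 in non-cycling glia and -0.72 to 0.47 without 1 library. *Mt3* was -0.074 with TMM scaling, -0.16 with the stricter gate, -0.40 with the wider gate, -0.0052 with no haemoglobin limit, -0.62 in non-cycling glia and -0.14 to 0.16 without 1 library. *Apoe* was 0.039 with the stricter gate and 0.017 in non-cycling glia, and *Dbi* 0.036 with all libraries. *Slc1a2* in neurons was -0.012 to 0.073 without 1 library. For the difference, *Mt2* was -0.73 with a pseudocount of 0.1, -1.23 in edgeR with TMM, -1.13 with RLE and -1.33 in DESeq2, *Mt1* 0.052 with and without the replicate block, and *Apoe* 0.87 with endothelial cells and microglia as background. In cycling glia, *Mt2* was -0.36 to 0.027 without 1 library. One call also reversed: *Apoe* in neurons was -0.11 with all libraries and -0.23 with and without the replicate block.

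With all 9 libraries *Tcf4* was 0.901 UMIs per 10000 higher in KO (exact permutation p = 0.762, 2-sided), against lower in KO among the 5 compared libraries. Over all genes, the 37 called in glia became 4 with a pseudocount of 0.1, 3 with no filter, 57 in edgeR, 97 with the stricter gate, 208 with the wider gate, 75 with the gate on all UMIs, 18 with all libraries, 318 in non-cycling glia, 10 without ganglionic genes, 6 without the block and 0 to 1485 without 1 library. The 162 in neurons became 43 with no filter, 253 with TMM, 365 in DESeq2 and 29 to 1019 without 1 library. The 14 of the difference became 8 with a pseudocount of 0.1, 0 with no filter, 25 with TMM, 149 in edgeR, 47 in DESeq2, 31 and 348 with the stricter and wider gates, 212 with the gate on all UMIs, 9 with thinned values, 28 with no haemoglobin limit, 27 with and 2 without the block, 33 with endothelial cells and microglia and 0 to 2052 without 1 library. The 141 of cycling glia became 35 with no filter, 371 in edgeR, 84 with thinned values and 56 to 327 without 1 library, and the 2290 of glia against neurons 4441 in edgeR and 1426 to 3003 without 1 library. The median of all genes moved from -0.06 to -0.23 in glia and from -0.03 to -0.32 for the difference in edgeR. The stricter gate was not run in cycling glia, and WT5 has too few glia to enter. Precision is limited by the 30 and 12 glia of KO4 and KO5.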

Other observations

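*Apoe* was nearly absent from KO1. In all 331 kept cells of that library 18 *Apoe* UMIs were found, 0.146 UMIs per 10000, against 1.08 to 3.36 in the other 8 libraries. Its 28 glia held 0.706 UMIs per 10000 (8 UMIs), against 9.32 to 25.9 in the glia of WT2, WT3, WT4, KO2, KO4 and KO5, and its 185 neurons held 1 UMI. In the same glia *Fabp7* was at 201, *Dbi* at 107 and *Mt3* at 42.1.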
